A study of Rattus norvegicus with 8 samples.

Results

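The genes described here are the chemokines, the interleukins and their receptors, as a rat whole-genome oligonucleotide array measured them in the medial thalamus after brief tracheal occlusions. They were chosen by the letters of their array names: a name starting with Ccl, Ccr or Cxc and a further character, or with Il and a digit, which took 105 genes on 122 of the 41012 probes outside controls. The letters also caught 2 genes that are neither, Ccrk (now Cdk20, a protein kinase) and Il1rl1l (now Tmed1, a protein of the early secretory pathway). Chemokines of the fractalkine and lymphotactin classes lie outside the letters and are given as a separate list.

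Chemokines are small secreted proteins that guide leukocytes through G protein-coupled receptors, and are grouped as CC or CXC by the spacing of their first cysteines. Many interleukins act through receptor chains that signal by JAK kinases and STAT factors, and those of the IL-1 family through adaptors shared with Toll-like receptors. In brain they come mainly from microglia, astrocytes, endothelium and meningeal cells, and a few, such as Cxcl12 and the receptor-like Il1rapl1, are made by neurons.

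All 8 animals were male Sprague-Dawley rats of about 277 g, under urethane, each with a tracheal cuff that could be inflated. In 4 rats (occlusion) the cuff closed the airway for 2 to 4 breaths at a time, with 15 or more breaths of recovery between closures. This was repeated for 10 min, and the brain was taken immediately. In 4 rats (control) the same surgery was done without inflation, and the brain was taken 70 min after setup. For occluded rats the sources used here do not give the time from setup to removal, so anaesthesia time and treatment cannot be told apart. Each rat was hybridised in Cy5 on 1 array against a pool of all 8 rats in Cy3, without dye swap, and each of 2 slides held 2 rats of each group. Values are log2 ratios of the rat over the pool. The tissue is bulk, so fewer cells of a type and less RNA per cell cannot be told apart.

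Between 68.3% and 80.2% of spots per array were well above background in Cy5. Control 1 had the lowest share, and 853 outlier spots against 136 to 423 on the other 7 arrays. It was the lowest rat in 10 of the 58 tested members, and in 15.5% of all genes. The array of control 3 stood apart. Its mean log2 ratio was 1.39 over 8 of 8 cortex neuron markers, against -0.81 to -0.25 in the other 7 rats, and 0.96 over 8 of 8 meningeal and fibroblast markers, against -0.56 to 0.10. Over 7 of 8 thalamic relay markers it was -1.97, against -0.27 to 0.16, so this rat's markers go against the labelled tissue. Occlusion 3 lay closest to the pool. The median size of its log2 ratio was 0.016 over the 58 tested members, against 0.079 to 0.21 in the other 7 rats, and 0.038 over all genes, against 0.099 to 0.17. Choroid plexus markers were higher in the occlusion group in 5 of 5 tested genes. The list means were -0.34, -0.40, 0.71 and -0.80 in occlusion rats 1 to 4, and -0.57, -0.91, -1.79 and -0.90 in control rats 1 to 4. Occlusion 3 was the highest rat and control 3 the lowest, and the other rats of the 2 groups overlapped. Without control 3 the sign of the difference turned in 12 of the 58 tested members, and the values without it are given beside the genes it moves most.

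The CXC ligands Cxcl1 and Cxcl2, neutrophil attractants, and Cxcl7 (now Ppbp), a platelet chemokine, are neighbours on chromosome 14. The bases before their starts are shown because Cxcl1 had the widest spread of the 58 tested members and Cxcl7 was among the 2 members with an unadjusted p under 0.05. The 250 bases upstream of each start are from RefSeq's GRCr8 assembly, 5′ to 3′, all on the minus strand. Capitals mark the letters GGGNNNTTC, a core of the NF-kappaB motif, found on either strand.
Cxcl1 (chr14:17479322-17479571): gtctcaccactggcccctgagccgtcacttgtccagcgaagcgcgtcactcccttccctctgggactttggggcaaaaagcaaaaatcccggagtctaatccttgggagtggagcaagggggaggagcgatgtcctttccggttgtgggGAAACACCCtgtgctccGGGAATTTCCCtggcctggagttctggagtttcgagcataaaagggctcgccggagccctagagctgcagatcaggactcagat
Cxcl2 (chr14:17467256-17467505): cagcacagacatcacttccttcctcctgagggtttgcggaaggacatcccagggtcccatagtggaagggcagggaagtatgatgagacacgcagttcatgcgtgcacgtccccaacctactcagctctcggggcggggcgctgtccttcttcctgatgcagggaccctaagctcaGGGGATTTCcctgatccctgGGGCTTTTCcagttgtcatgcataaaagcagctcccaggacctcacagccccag
Ppbp (chr14:17587300-17587549): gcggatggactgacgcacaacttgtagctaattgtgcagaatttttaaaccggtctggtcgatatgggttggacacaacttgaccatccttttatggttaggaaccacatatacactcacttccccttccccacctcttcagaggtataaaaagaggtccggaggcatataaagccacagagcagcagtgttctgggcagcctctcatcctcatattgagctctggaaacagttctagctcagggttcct
Cxcl1 held 3 matches, of which 2 overlap on opposite strands, Cxcl2 held 2, and Ppbp held 0 in this window. A RefSeq window of 300 bases, 250 before and 50 after the start, was given for 80 of the 105 genes in 82 entries. The core was in 24 of these 82 windows (29.3%), and in 14.2% of 33469 windows of the same length over all genes. The AP-1 motif TGANTCA was in 11 of 82 (7.33% of all windows), and the STAT motif TTCNNNGAA in 10 of 82 (8.87% of all), both strands searched and overlaps between motifs allowed. A match in these letters is a description and not a measured site.

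A smaller share of member probes than of all probes gave a signal. A gene entered the test if the Cy5 signal of its probe cleared background on 4 or more arrays of 8, and 58 of the 105 were (55.2%). Of the 122 member probes, 28.7% were above background on 0 arrays and 36.9% on all 8, where these shares were 14.3% and 62.8% over all probes. The number of member probes above background was 64, 71, 60 and 68 in occlusion rats 1 to 4, and 50, 70, 76 and 69 in control rats 1 to 4. Control 1 had the fewest and control 3 the most, and the groups overlapped.

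**Figure D1:**
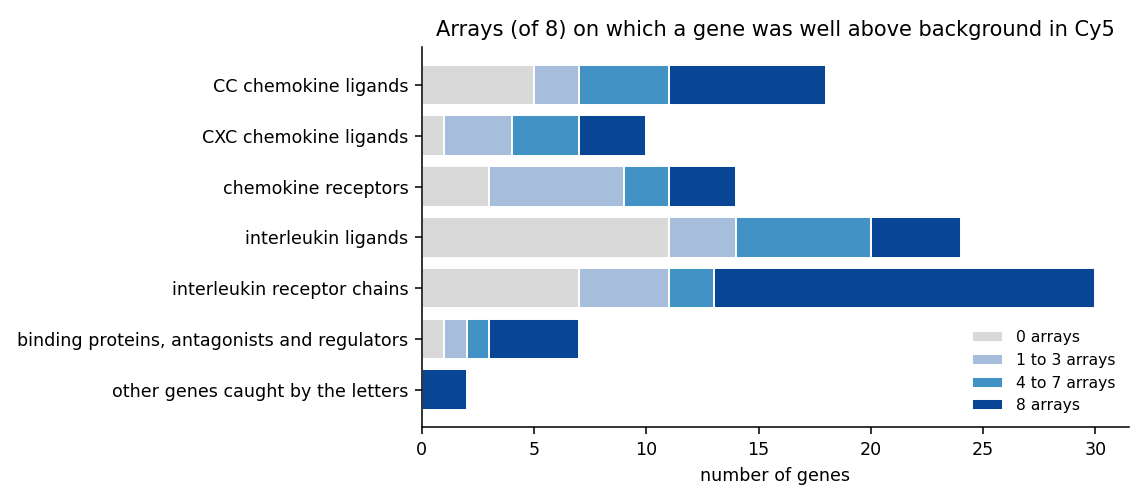
Number of genes in each role group (bar length) by the number of arrays, of 8, on which the gene's probe was well above background in Cy5. Of 24 interleukin ligands 11 were on 0 arrays, and of 30 interleukin receptor chains 17 were on all 8.

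By role, 11 of 18 CC ligands, 6 of 10 CXC ligands and 5 of 14 chemokine receptors were tested. So were 10 of 24 interleukin ligands, 19 of 30 interleukin receptor chains and 5 of 7 binding proteins, antagonists and regulators, and both genes caught by letters alone. The classic acute cytokine Il6 was above background on 0 of 8 arrays, with a Cy5 signal over local background of 24.2 to 36.7 on the linear scanner scale. The same count of 0 held for Il1a, the other agonist of the IL-1 receptor, and for both probes of Il1r1, the receptor's signalling chain. Median Cy5 signals over all probes were 142 to 191 per array. The monocyte attractant Ccl2 was above background in 0 occlusion rats and 1 control rat, its receptor Ccr2 in 0 and 1, and the interferon-induced Cxcl10 in 1 and 2.

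Among the other untested receptors, Cxcr3, Ccr1 and Il8ra (now Cxcr1) were each above background on 1 array, and Il8rb (now Cxcr2), the receptor of Cxcl1, on 0. Il8ra was not dim in every rat. Its Cy5 signal over local background had a median of 30.5 and reached 877. Its log2 ratio was 1.91 in control 3 and -1.13 to -0.09 in the other rats. Of the T-cell cytokines, Il2, Il5, Il9 and Il21 were on 0 arrays, Il4 on 2, Il3 on 3 and Il13, which was tested, on 7. Il7r, a lymphocyte receptor chain, was on 1. Other such chains were tested, with Il2rb, Il2rg, Il21r and 1 of 2 probes of Il2ra on all 8. Of 10 lymphocyte markers 2 were tested. At this sensitivity, differences in the 47 untested genes were not measurable. No member was above background on 4 arrays of 1 group and on 0 of the other.

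Brief occlusions were compared with surgical control to ask which transcripts differ after them. None of the 58 tested members passed: 0 had an adjusted p under 0.05 (limma, Benjamini-Hochberg over all 26963 genes tested), beside 0% of all genes, and the smallest adjusted p of a member was 0.974. Only 2 members had an unadjusted p under 0.05, 1 with a higher value in occlusion and 1, Cxcl7, with a lower value, against 3.12% of all genes, 1.83% higher and 1.29% lower. The values of occlusion and control rats did not overlap in 1 member, Ccr1l1, lower in occlusion, against 2.54% of all genes, 1.34% in that direction and 1.19% in the other. These counts are near the background.

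The log2 difference, occlusion minus control, was above 0 in 30 of the 58 and below 0 in 28. This is 51.7% above 0, against 50.2% of all genes. After median centring of each array in place of loess it became 39.7%, against 49.8% of all genes. The median difference was 0.0055, against 0.00075 over all genes, and the median size 0.088 against 0.073. The median standard error was 0.11, and 38 of the 58 differences were smaller than their own error. They ran from -0.33 (Cxcl14) to 0.39 (Ccl3).

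**Figure D2:**
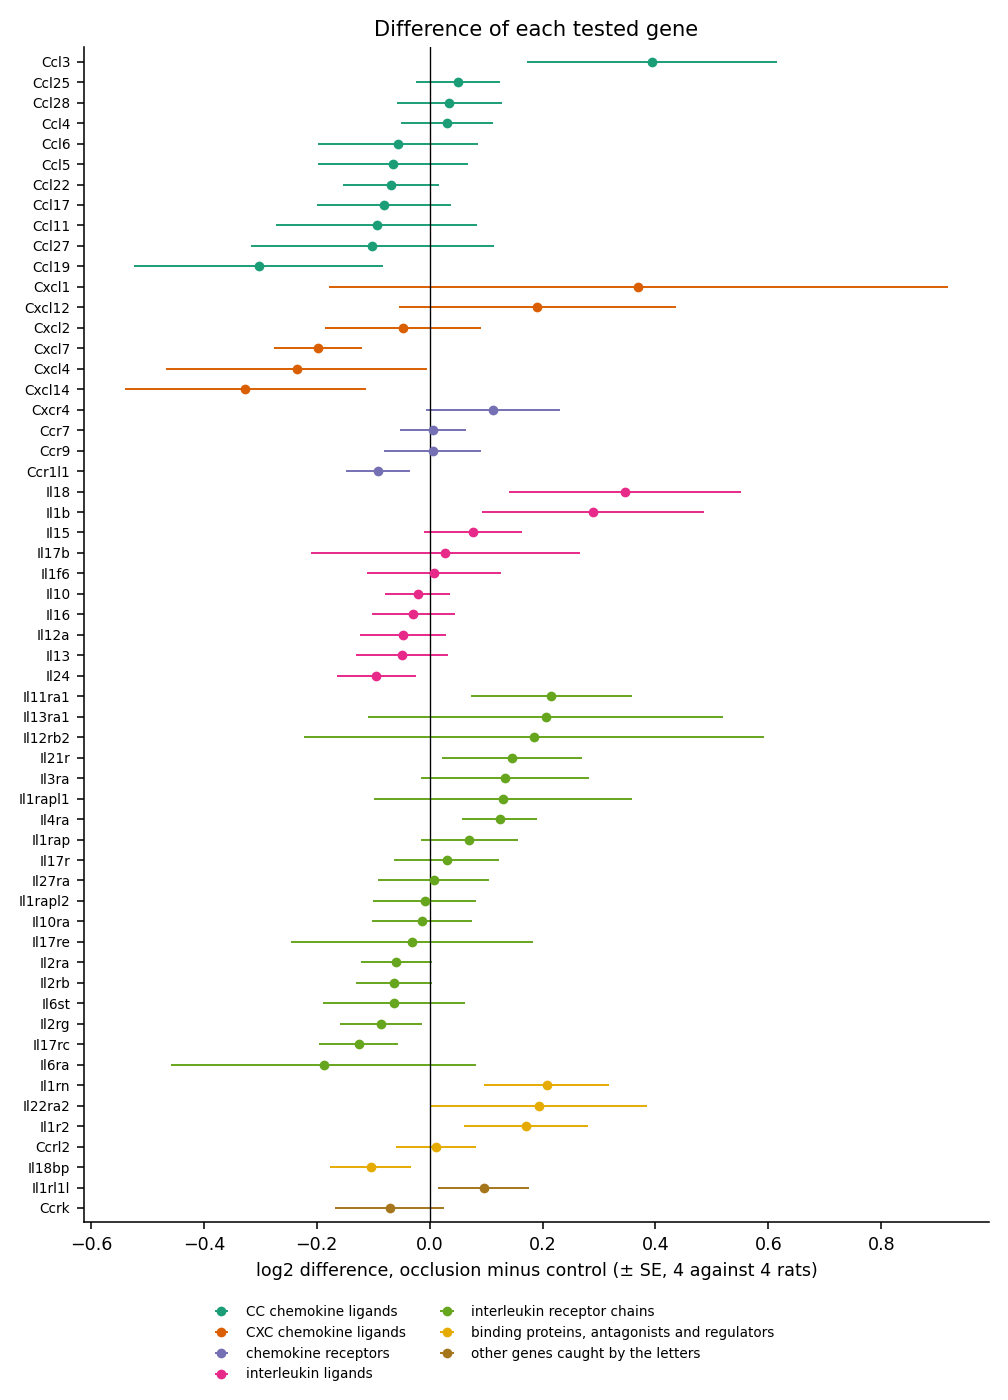
Log2 difference of occlusion minus control (x axis, points with SE, 4 against 4 rats) for 57 of the 58 tested genes, coloured by role. The points run from -0.33 to 0.39 on both sides of 0, and Cxcl1 carries the widest error bar, an SE of 0.55.

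Of the 11 tested CC ligands 4 were higher and 7 lower, with a median difference of -0.065, and 0 had an unadjusted p under 0.05. Ccl3, a macrophage inflammatory protein, gave 0.06, 0.55, 0.03 and 0.07 in the occlusion rats and -0.90, 0.04, -0.07 and 0.05 in the controls. Occlusion 2 was high and control 1 low, and the other 6 rats lay between -0.07 and 0.07. The difference was 0.39 ± 0.22 (SE, limma unadjusted p = 0.110, adjusted p = 0.974), and the exact two-sided permutation test over the 70 assignments gave p = 0.0857, where the smallest possible is 0.0286. Without control 1 the difference was 0.17. On the array of control 1 the pool's Cy3 signal at this probe was 301 over local background, against 64.3 to 69.9 on the other 7 arrays, and the Cy5 signal of 214 was also the highest of the 8.

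Ccl19, which draws dendritic cells and T cells through Ccr7, gave -0.30, -0.17, 0.05 and -0.07 in occlusion and -0.14, -0.07, 0.92 and 0.01 in control. Control 3 lay alone above the other 7 rats. The difference was -0.30 with all rats and -0.06 without control 3. Ccl27, a skin chemokine, followed with 0.55 in control 3 and -0.56 in occlusion 3. Its difference of -0.10 became 0.10 without control 3. On the array design the Ccl27 probe lies 276 bases from that of Il11ra1 on the other strand.

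Ccl5, an attractant of T cells and monocytes, gave -0.08, 0.06, 0.00 and 0.04 in occlusion and 0.09, 0.31, -0.34 and 0.22 in control. The controls spanned the occlusion rats on both sides. The difference was -0.07, and -0.20 without control 3. The Ccr4 ligands Ccl17 and Ccl22 differed by -0.08 and -0.07. The neighbours Ccl5, Ccl9, Ccl6, Ccl3 and Ccl4, within rn3 chromosome 10 positions 71620459 to 71774696, had 4 tested genes. Their differences ran from -0.07 to 0.39. Of the monocyte attractant cluster Ccl2, Ccl7, Ccl11 and Ccl12 on the same chromosome, only the eosinophil attractant Ccl11 was tested, with -0.09 and, without control 3, 0.06.

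Among the 6 tested CXC ligands 2 were higher and 4 lower, with a median of -0.12. Cxcl1 (probe at rn3 chromosome 14, 18690468 to 18690527) gave -0.50, -0.19, 0.04 and 0.49 in the occlusion rats. In the controls it gave -1.27, -0.68, 1.43 and -1.11. Control 3 was the highest of the 8 rats and the other 3 controls the lowest, with all occlusion rats in between. The SD over the 8 rats was 0.89, larger than that of 99.3% of all genes.

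The Cxcl1 difference was 0.37 ± 0.55 (SE, limma unadjusted p = 0.518, exact permutation p = 0.629). Without control 3 it was 0.98 ± 0.23, with an unadjusted p of 0.0021 and an adjusted p of 0.917 in limma. Leaving out any other single rat gave 0.08 to 0.52, and slide 1 alone, with 2 rats of each group, gave -0.50. The Cy5 signal over local background had a median of 166 over the 8 rats and reached 876.

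Cxcl7 gave -0.04, -0.09, -0.01 and -0.10 in the occlusion rats and 0.22, 0.22, -0.06 and 0.16 in the controls. Controls 1, 2 and 4 lay above every occlusion rat, and control 3 lay among the occlusion rats. The difference was -0.20 ± 0.08 (SE, limma unadjusted p = 0.032, adjusted p = 0.974, exact permutation p = 0.0857). The signal was dim, 35.5 to 80.1 over local background. Without control 3 the difference was -0.26.

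Cxcl4 (now Pf4), the other platelet chemokine of this cluster, gave -0.24, 0.02, 0.00 and 0.41 in occlusion and -0.10, 0.07, 0.97 and 0.20 in control. Cxcl14, an epithelial and neuronal chemokine, gave -0.29, -0.06, -0.03 and 0.09, and -0.08, 0.06, 0.96 and 0.09. In both genes control 3 was the highest rat and the remaining controls overlapped the occlusion rats. The differences of -0.24 and -0.33 became -0.01 and -0.09 without control 3. In the same rat the meningeal and fibroblast list stood at 0.96 and the cortex list at 1.39, and their part in these values was not tested. Cxcl2 differed by -0.05 (0.07 without control 3, the highest rat at 0.45), and was above background on 4 arrays. Of the neutrophil markers 5 of 8 were tested, 4 higher and 1 lower, and Mpo and Elane were not among the tested. The list means were -0.04 to 0.21 in occlusion and -0.09 to 0.04 in control. The groups did not overlap in 1 of the 5, Lcn2, higher in occlusion, against 1.19% of all genes in that direction. It differed by 0.23 ± 0.09 (SE, limma unadjusted p = 0.025, adjusted p = 0.974).

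Cxcl12, the ligand of Cxcr4, had 2 tested probes that match different RefSeq transcripts of the gene. The brighter gave -0.51, 0.07, 0.17 and 0.49 in occlusion and -0.45, 0.24, -0.51 and 0.18 in control, a difference of 0.19. The other gave -0.58, -0.47, 0.07 and -0.18, and -0.58, -0.62, 1.80 and -0.51, a difference of -0.31. Control 3 was the lowest rat for the first probe and the highest for the other. Without it the differences were 0.06 and 0.28, so the opposite signs of the 2 probes rested on this rat.

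**Figure D3:**
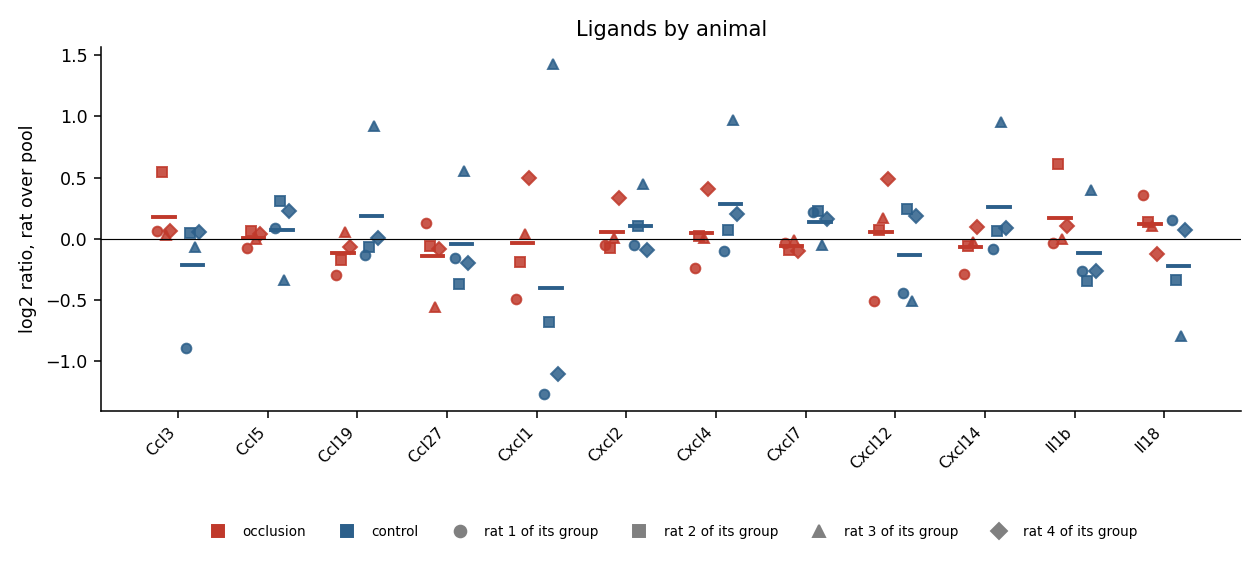
Log2 ratio of each rat over the pool (y axis) for 12 ligands. Red marks occlusion and blue control, the marker shape gives the rat's number within its group, and bars are group means. Control 3 (blue triangle) is at 1.43 for Cxcl1 and near 1 for Cxcl4, Cxcl14 and Ccl19, while occlusion 3 (red triangle) sits near 0 for most genes.

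Of 5 tested chemokine receptors 4 were higher and 1 lower, with a median of 0.006. The means over the 11 of 12 tested microglia and macrophage markers ran from -0.13 to 0.17 in occlusion and from -0.06 to 0.03 in control.

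Ccr1l1, a receptor close to Ccr1 in sequence and position, gave 0.03, 0.11, 0.03 and 0.01 in occlusion and 0.12, 0.12, 0.17 and 0.12 in control. Every control lay above every occlusion rat, by a narrow margin. The difference was -0.09 ± 0.06 (SE, limma unadjusted p = 0.145), and the exact permutation p of 0.0286 is the smallest that 4 against 4 can give. Any gene of 4 against 4 rats whose groups do not overlap gives this p. It therefore adds nothing to the separation, which 2.54% of all genes showed. Cxcr4 gave 0.03, 0.03, -0.03 and 0.13 in occlusion and -0.09, -0.27, 0.29 and -0.20 in control. As for Cxcl1, control 3 was above all occlusion rats and the other controls below. The difference was 0.11, and 0.23 without control 3. Ccr7, the lymph node homing receptor, differed by 0.01, and its sign turned after median centring (-0.04).

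The 10 tested interleukin ligands had 5 higher and 5 lower values and a median of -0.007. Il1b, the main secreted IL-1, gave -0.03, 0.61, 0.00 and 0.10 in occlusion and -0.26, -0.35, 0.40 and -0.27 in control. Occlusion 2 was highest, control 3 next, and the other 3 controls were below all occlusion rats. The difference was 0.29 ± 0.20 (SE, limma unadjusted p = 0.176, exact permutation p = 0.314), and 0.46 without control 3. The second probe of Il1b gave 0.26.

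Il18, an IL-1 family cytokine released by the inflammasome, gave 0.36, 0.14, 0.11 and -0.12 in occlusion and 0.16, -0.34, -0.80 and 0.07 in control. Control 3 was lowest, and the groups overlapped. The difference was 0.35 ± 0.20 (SE, limma unadjusted p = 0.127), 0.16 without control 3, and 0.15 on the second probe. Il15, a growth factor for natural killer cells, differed by 0.08, the lymphocyte attractant Il16 by -0.03, the anti-inflammatory Il10 by -0.02 and Il24, of the Il10 family, by -0.09. These 4 differences were all within 1.5 times their SE.

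Of the 19 tested interleukin receptor chains 10 were higher and 9 lower, with a median of 0.007 and 0 at an unadjusted p under 0.05. Il4ra (now Il4r), shared by the receptors of IL-4 and IL-13, gave 0.01, -0.09, -0.09 and -0.05 in occlusion and -0.21, -0.25, -0.06 and -0.20 in control. Controls 1, 2 and 4 lay below all occlusion rats and control 3 lay among those. The difference was 0.12 ± 0.07 (SE, exact permutation p = 0.0857). Il17rc, a chain of the IL-17 receptor, differed by -0.13 ± 0.07 (SE, exact permutation p = 0.0857), and Il2rg, the common gamma chain, by -0.09.

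Il11ra1, the IL-11 receptor, gave 0.40, 0.00, 0.18 and -0.14 in occlusion and -0.25, -0.21, 0.22 and -0.19 in control. Again controls 1, 2 and 4 lay below all occlusion rats and control 3 did not. The difference was 0.22, and 0.32 without control 3. Il6ra (now Il6r), the IL-6 binding chain, gave -0.04, -0.39, -0.10 and -0.15, and -0.21, -0.32, 0.94 and -0.34. Control 3 alone stood above 0 and the difference of -0.19 became 0.12 without it. Il6st (gp130), the signalling chain of the same receptor, differed by -0.06.

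Il13ra1, the IL-13 binding chain, had 4 tested probes and control 3 was the lowest rat on each of them, at -1.27, -0.57, -0.50 and -0.44. The other 7 rats lay between -0.18 and 0.29 on the brightest. The difference of 0.21 became -0.15 without control 3. The array design places these probes on rn3 chromosome 11, while RefSeq's GRCr8 table lists the gene on another chromosome, and which transcript they measure was not tested. Il12rb2, a chain of the IL-12 receptor, was at -1.61 in control 3, while the other 7 rats ranged from -0.20 to 0.39. Its difference of 0.18 became -0.30. Il1rap, the accessory chain of the IL-1 receptor, differed by 0.07, with control 3 lowest at -0.22, and by -0.01 without it.

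**Figure D4:**
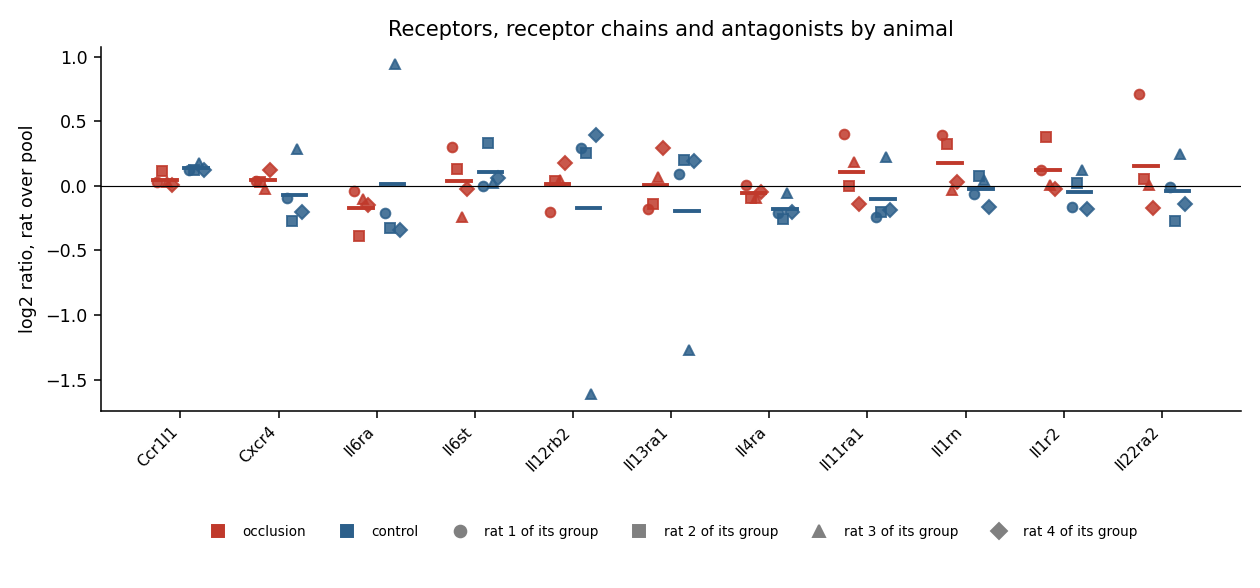
Log2 ratio of each rat over the pool (y axis) for 11 receptors, receptor chains and antagonists, with colours, markers and bars as for the ligands. Control 3 (blue triangle) is lowest for Il12rb2 (-1.61) and Il13ra1 (-1.27), and highest for Il6ra (0.94).

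Of the 5 tested binding proteins, antagonists and regulators 4 were higher and 1 lower, with a median of 0.17, against 0.00075 over all genes. Their means were 0.24, 0.16, -0.01 and -0.01 in occlusion rats 1 to 4, and -0.02, -0.04, 0.11 and -0.04 in control rats 1 to 4. Occlusion 3 and occlusion 4 thus lay among the controls. Il1rn, the IL-1 receptor antagonist, gave 0.39, 0.33, -0.03 and 0.03 in occlusion and -0.06, 0.07, 0.04 and -0.17 in control. Occlusion 1 and occlusion 2, both on slide 1, were high and the other pair lay among the controls. The difference was 0.21 ± 0.11 (SE, exact permutation p = 0.200), and -0.01 on slide 2 alone.

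Il1r2, the IL-1 decoy receptor, gave 0.12, 0.38, 0.00 and -0.02 in occlusion and -0.17, 0.02, 0.12 and -0.18 in control, a difference of 0.17. Il22ra2, a soluble IL-22 binding protein, was at 0.71 in occlusion 1, the other 7 rats ranging from -0.27 to 0.25, a difference of 0.19. Il18bp, which binds Il18, differed by -0.10 ± 0.07 (SE). None of these 4 had an unadjusted p under 0.05. Of the 2 genes caught by letters, Ccrk differed by -0.07 (0.01 without control 3) and Il1rl1l by 0.10.

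**Figure D5:**
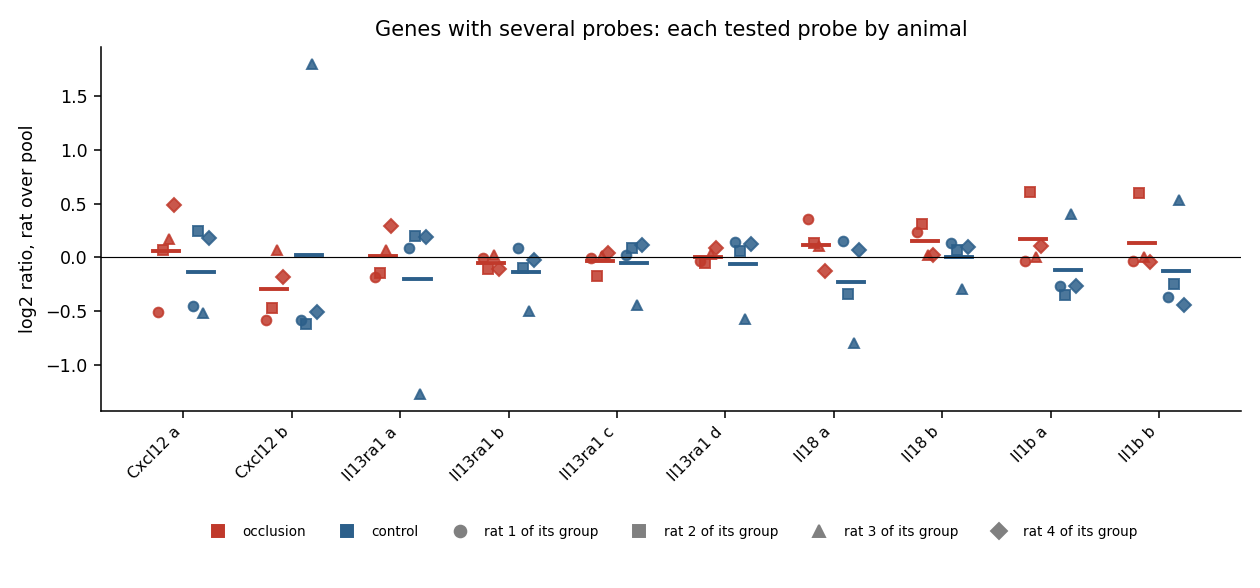
Log2 ratio of each rat over the pool (y axis) for each tested probe (letters a to d, a being the brightest) of 4 genes, with colours, markers and bars as for the ligands. Control 3 is at -0.51 and 1.80 on the Cxcl12 probes, and lowest on all 4 probes that the array design names Il13ra1.

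Members varied a little more between rats than other genes did. The median SD over the 8 rats was 0.17, against 0.14 over all genes, and 3 members had an SD above 0.5. Control 3 was the rat farthest from the median in 26 of the 58 (44.8%), against 34.1% of all genes. It lay above the other 7 rats in 19 members and below them in 13. Without control 3, 8 members had an unadjusted p under 0.05 in limma (Cxcl1, Cxcl7, Cxcr4, Il1b, Il12rb2, Il11ra1, Ccl5 and Il4ra), against 4.22% of all genes. The smallest adjusted p among them was 0.917. Of these 8 only Cxcl7 is among the 2 found with all rats. Leaving out occlusion 1, occlusion 2, occlusion 4 or control 4 gave 0 such members each, against 1.81%, 2.38%, 3.56% and 3.18% of all genes. Leaving out occlusion 3 or control 2 gave 3, against 2.47% and 3.24%, and leaving out control 1 gave 2, against 5.34%.

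Genes around the members were read from lists of the same pathways. None of the genes in them passed an adjusted p under 0.05 (limma). Of 26 tested JAK, STAT and SOCS genes 13 were higher and 13 lower, with a median of 0.01. Of these 26, 2 had an unadjusted p under 0.05 in limma, against 3.12% of all genes. They were Stat5a, which transmits IL-2 and IL-3 family signals, at 0.34 ± 0.14 (SE, control 1 without a value; 0.17 without control 3, unadjusted p = 0.107), and Ptpn6, a phosphatase that dampens them, at 0.19 ± 0.07. Of 24 tested IL-1 and Toll-like receptor genes 12 were higher and 12 lower, with a median of -0.005. The 2 with an unadjusted p under 0.05, against the same 3.12% of all genes, were Sigirr and Tlr6. Sigirr, an inhibitory IL-1 receptor relative, differed by 0.26 ± 0.09, and Tlr6 by 0.26 ± 0.09.

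Other cytokines and their receptors were higher in 9 of 11 tested genes, with a median of 0.05. The list means were -0.05 to 0.05 in occlusion, and -0.22, -0.03, -0.25 and -0.04 in control rats 1 to 4. Controls 2 and 4 thus lay within the range of the occlusion rats. Of these 11, 1 had an unadjusted p under 0.05 in limma, against 3.12% of all genes. It was the microglial growth factor Csf1, which differed by 0.39 ± 0.13 (SE, limma unadjusted p = 0.013, adjusted p = 0.974), and by 0.36 without control 3. Among 9 tested genes of the gp130 family, 18 of chemokine receptor signalling, and 6 chemokines and atypical receptors outside the letters, 4, 7 and 3 were higher. Their medians were -0.05, -0.03 and 0.01, and 0 had an unadjusted p under 0.05. Over all genes 50.2% were higher, and 3.12% had an unadjusted p under 0.05.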

How the data were processed

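Per the file headers, the authors extracted 2-colour Agilent arrays with Feature Extraction 9.5.1.1 (design positions on rn3). The deposited scanner files hold spot intensity on a linear scale and a log10 ratio of Cy5 over Cy3, and the deposited series table repeats that log10 ratio. Intensities were corrected here by normexp (offset 50) and normalised by loess within arrays, giving control spots and outliers no weight. After removal of outliers, each probe took the mean of its spots. The filter asked for a Cy5 signal well over background on 4 or more of 8 arrays and 2 or more values per group, and each gene took its brightest probe. Occlusion was compared with control by limma 3.58.1 (R 4.3.3; lmFit, eBayes, two-sided) over 26963 genes, with Benjamini-Hochberg adjustment and a threshold of 0.05. The fit was tested on simulated data. Single genes were also tested by exact permutation of 4 against 4 rats.

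Of the 122 member probes 92 were named through a RefSeq (GRCr8) table by accession, 25 by symbol and 5 by synonym. The members and lists were chosen with earlier results of these data known. Named genes are, per role, up to 4 with the smallest p and 3 with the largest difference, those with separate groups, and a panel of 27 genes, of which 23 were on the array by these names and 17 were tested. Other genes given by value (Il12rb2, Ccl11, Cxcl2 and the neighbours of members) were chosen after their values were seen, as was the mention of occlusion 3. The values of 1 member are not reported here. Alternatives were 23 settings of background, normalisation, filter, probes, weights, slide, replicate block and animals left out. Same-numbered rats did not deviate together (correlations of -0.13, 0.14, 0.03 and 0.08), and they were not treated as pairs. With 4 rats per group, and same-numbered rats on different slides, these correlations cannot exclude a pairing. Nothing in the labels says how the rats were processed beyond 1 array each, and p-values measure the spread between these arrays. Figures were drawn with matplotlib 3.10.9.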

Additional observations from a re-analysis of the deposited data

Results flagged for a closer look

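In 72 checks of 4 rats each (35 named genes and the mean over all tested members, in both groups), 10 values lay farther from the other rats of their group than Dixon's 95% limit for the gap over the range. Chance gives about 1 in 20 for independent checks of genes chosen without regard to their values. Part of these genes were chosen by their p or difference in the same rats, and the checks share the same arrays. That rate therefore does not apply directly to this count. Of the 10, 8 were in control 3, whose region markers also stood apart. They were Il13ra1 at -1.27, Cxcl14 at 0.96, Il6ra at 0.94, Ccl19 at 0.92, Il1b at 0.40, Il11ra1 at 0.22, Il1rap at -0.22 and Ccr1l1 at 0.17. The part of the region markers in these values was not tested. The other two were in Ccl3, in occlusion 2 (0.55) and in control 1 (-0.90), on whose array the pool's Cy3 signal at this probe was 301 over local background, against 64.3 to 69.9 on the other 7.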

How the results depend on the processing

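No member passed an adjusted p under 0.05 in limma under any of the 23 alternative settings, and over all genes 1 (Bcl3) passed without control 3 and 0 in every other fit, the range with 1 rat left out being 0 to 1. With all rats 842 genes and 2 members had an unadjusted p under 0.05. That member count, with the share of all genes in the same fit, was 1 (3.11%) without background subtraction, 0 (1.05%) after median centring, 1 (2.83%) after scaling between arrays, 4 (2.79%) on Cy5 alone, 3 (3.53%) on the scanner's ratios, 1 (3.05%) with the filter at all 8 arrays, 4 (3.19%) without a filter, 1 (3.14%) with the mean over probes, 6 (4.45%) with array weights, 2 (4.00%) on slide 1 alone and 3 (2.78%) on slide 2 alone. With 1 rat left out it was 0 to 8. As same-numbered rats were not treated as pairs, the replicate block, which gave 1 (3.01%), is given only here. Members higher numbered 59 of 105 without a filter. The median difference was -0.10 on the scanner's ratios (-0.02 over all genes). It was -0.040 on slide 1 alone (0.0043 over all genes) and 0.047 on slide 2 alone (-0.0052 over all genes). The causes were not tested.

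No member whose sign turned had passed the threshold. It turned without background subtraction in Ccr7 (-0.032) and Il10 (0.013), after median centring in Ccr7 (-0.043), on the scanner's ratios in Ccr7 (-0.20) and Il10 (0.0070), and with the mean over probes in Cxcl12 (-0.060). On Cy5 alone it turned in Ccl17 (0.14), Ccr7 (-0.00090), Il16 (0.024) and Il2rg (0.086), and with array weights in Ccl27 (0.013), Il13ra1 (-0.061) and Il6ra (0.046). On slide 1 alone it turned in Ccl17 (0.038), Ccl5 (0.050), Cxcl1 (-0.50), Cxcl12 (-0.051), Cxcr4 (-0.010), Il10 (0.014) and Il6st (0.17), and on slide 2 alone in Ccl19 (0.10), Ccl22 (0.0046), Ccr7 (-0.044), Cxcl14 (0.043), Cxcl4 (0.22), Il1rn (-0.0056) and Il6ra (0.14). With 1 rat left out the differences spanned 0 in Ccr7 (-0.014 to 0.026), Il16 (-0.061 to 0.0035), Ccl27 (-0.21 to 0.10), Il6st (-0.15 to 0.031), Ccl5 (-0.20 to 0.015), Ccrk (-0.11 to 0.011), Il13ra1 (-0.15 to 0.34), Il1rap (-0.0055 to 0.10) and Il6ra (-0.31 to 0.12).

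With 4 rats per group and 1 array each, small differences cannot be resolved, and the 47 members that did not pass the filter carry no measured difference.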
